A study of Homo sapiens with 6 samples.

Results

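The genes ATF4, ASNS, PSAT1, PHGDH, PSPH, PCK2, SHMT2, CHAC1, DDIT3 and TRIB3, which belong to serine synthesis, asparagine synthesis and the ATF4 response, were followed in Huh-7 cells, an established human hepatocellular carcinoma line, with and without stable RAC3 overexpression. They were found by symbol among the 20332 genes of the deposited table, and all 10 of 10 were among the 12941 genes with enough counts to be tested. The genes were chosen with their values in this comparison known, and ASNS, PSAT1 and PHGDH were named as the leading ones. Their differences are therefore given as a description, with a standard error and without a p-value. Calls at an adjusted p below 0.05 are named for them only beside those of all genes and under alternatives. Nothing is read from these calls. The study compared 3 samples of a Huh-7 line stably overexpressing RAC3, a small GTPase, made with a lentivirus, with 3 samples of its negative control line, labelled WT in genotype. Both groups were cultures of this line, no drug treatment is named for either, and polyadenylated RNA was sequenced. Whether a stable line was a single clone or a pool is not given in the sources used here. The study's methods call the RNA samples independent but do not say whether they came from separate cultures, so any p-value measures only the spread between these samples, which may be technical.

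ATF4 is a transcription factor of the integrated stress response. When amino acids are short or unfolded proteins build up in the endoplasmic reticulum, kinases phosphorylate the translation factor eIF2, general protein synthesis falls and the ATF4 mRNA is translated more, so ATF4 activity is set largely at the level of its protein and not of its mRNA. ATF4 binds DNA together with C/EBP proteins and activates genes of amino acid synthesis, amino acid transport and tRNA charging, among them ASNS, which makes asparagine from aspartate, and the enzymes PHGDH, PSAT1 and PSPH, which make serine from a glycolytic intermediate. Serine then feeds glycine and the folate-bound carbon units used for nucleotide synthesis, a use in which liver cancer cells are known to draw on the mitochondrial enzyme SHMT2.

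The best known DNA element of this response is the C/EBP-ATF response element, which in ASNS lies just before the transcription start, and short stretches are shown here because they carry this element, or the CCAAT box, in ASNS, CHAC1 and the leading serine synthesis genes. RefSeq promoters (GRCh38.p14) were found for 8 of the 10 genes, PSPH and SHMT2 being the ones without an entry, and the 250 bases before each start were searched on both strands for TGATGNAA, the core letters of the element. Of the 8 genes, 4 have several annotated starts, which gave 13 windows in all. This motif stood before 2 of the 8 genes, before 1 of the 2 starts of ASNS and before CHAC1, and overlapped no CCAAT. It stood in 3.14% of all 35116 RefSeq promoters searched in the same way and in 2.40% of the tested genes with a promoter. The stretches are written 5′ to 3′ on the strand of the gene, with the matched letters in capitals.
ASNS: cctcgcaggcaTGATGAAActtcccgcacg
CHAC1: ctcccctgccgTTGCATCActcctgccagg
PSAT1: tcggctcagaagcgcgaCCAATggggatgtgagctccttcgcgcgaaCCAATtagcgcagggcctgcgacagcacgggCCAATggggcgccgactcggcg
PHGDH: tgagtatttccgtCCAATcaaaaggagact

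The ASNS stretch lies at chr7:97872458-97872487 on the minus strand, and its motif begins 68 bases before the RefSeq start. In GENCODE release 29 this stretch falls in the first exon, upstream of the coding part, of longer annotated ASNS transcripts. The CHAC1 stretch lies at chr15:40953251-40953280 on the plus strand, and its motif, read on the opposite strand, begins 209 bases before the RefSeq start, inside an exon that GENCODE starts further upstream. The PSAT1 stretch at chr9:78296995-78297094 on the plus strand overlaps no annotated exon or transcript. It holds CCAAT, the core of the box bound by NF-Y, 3 times, at 113, 83 and 52 bases before the start. The PHGDH stretch at chr1:119711850-119711879 on the plus strand holds it once, at 71 bases, within exons of longer PHGDH transcripts. CCAAT also stood before PCK2, DDIT3 and CHAC1, and in 41.8% of the tested genes with a promoter, so its presence in 5 of 8 genes is a description. No promoter of the 8 held TGACGTCA, the cAMP response element. Over all tested genes with a promoter, TGATGNAA stood before 40 of 1537 genes called lower with RAC3 (2.60%), 30 of 1430 called higher (2.10%) and 181 of 7472 not called (2.42%).

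Library totals lay between 13855762 and 18199888 counts on genes. In one library 3 counts, the limit a count of 0 allows for counting error only, correspond to between 0.165 and 0.217 normalized CPM, which are counts relative to the TMM-scaled size of each library. RAC3 itself had 35.6, 31.4 and 32.8 CPM in the negative controls and 232.6, 239.6 and 225.4 CPM in the RAC3 samples, although the genotype labels of RAC3 samples 2 and 3 name RAC4 and RAC5 overexpression. The groups were taken from the sample titles. All 11 hepatocyte markers examined were expressed, with a summed level of 6574 to 6666 CPM in the negative controls and 5982 to 6544 CPM in the RAC3 samples. Among these markers, ALB, which encodes albumin, had 2368 ± 109.4 and 2229 ± 138.7 CPM (SD, n = 3 per group). TF, which encodes transferrin, fell with RAC3 (log2 fold change -0.56, SE 0.0403, adjusted p = 1.2e-08 in the quasi-likelihood test of edgeR across all genes tested). Of the 11 markers, 4 fell (TF, AHSG at -0.33, TTR at -0.26 and GPC3 at -0.18) and 3 rose (FGB at 0.30, APOB at 0.20 and AFP at 0.16). With the GC trend of each library removed, AHSG (-0.25) and AFP (0.01) were not called, and FGB and APOB were at 0.19 and 0.12. AHSG was also not called without negative control 3 (-0.27) or RAC3 sample 3 (-0.26), nor AFP without negative control 2 (0.15). The 13 immune, endothelial and fibroblast markers summed to 234.0 to 252.3 CPM and 278.1 to 290.1 CPM, nearly all from LUM, COL1A2 and COL1A1, while PTPRC, which marks leukocytes, had 0 to 9 counts in a sample. COL1A2 (log2 fold change 0.51) and LUM (0.22) rose with RAC3, while COL1A1 fell (-0.22). With the GC trend removed, LUM (0.05) and COL1A1 (-0.04) were not called, and COL1A1 was called in only 9 of 16 alternatives. The part of these marker differences in the results below was not tested.

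With RAC3 overexpression, 7 of the 10 genes were lower, and ASNS, PCK2, PSAT1 and PHGDH differed most. ASNS was 41.1% lower, PCK2 37.2%, PSAT1 34.3%, PHGDH 34.2%, TRIB3 27.0%, SHMT2 23.2% and PSPH 15.9% lower than in the negative controls. ATF4 itself, DDIT3 and CHAC1 had overlapping groups. The 7 genes were those called lower at an adjusted p below 0.05 in this edgeR test, none was called higher, and among all genes tested 15.3% were called lower and 13.3% higher. At the study's thresholds, a fold change above 1.5 and an unadjusted p below 0.05, 4 of the 10 (ASNS, PSAT1, PHGDH and PCK2) were lower and 0 higher, against 2.99% and 1.68% of all genes. All 3 RAC3 samples lay below all 3 negative controls for the same 7 genes, as for 21.6% of all genes, and for none did they lie above, as for 20.9% of all genes. Since the genes were chosen on this comparison, nothing is read from these counts. Their median log2 fold change was -0.42, against 0.00 for all genes tested, and -0.25 for the 7 genes other than the 3 named as leading, of which 4 were lower. As these are bulk samples, fewer cells expressing a gene and less of its RNA per cell cannot be told apart. The 10 genes together took 0.291%, 0.292% and 0.297% of the counts of the negative controls and 0.217%, 0.231% and 0.225% of those of the RAC3 samples.

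**Figure D1:**
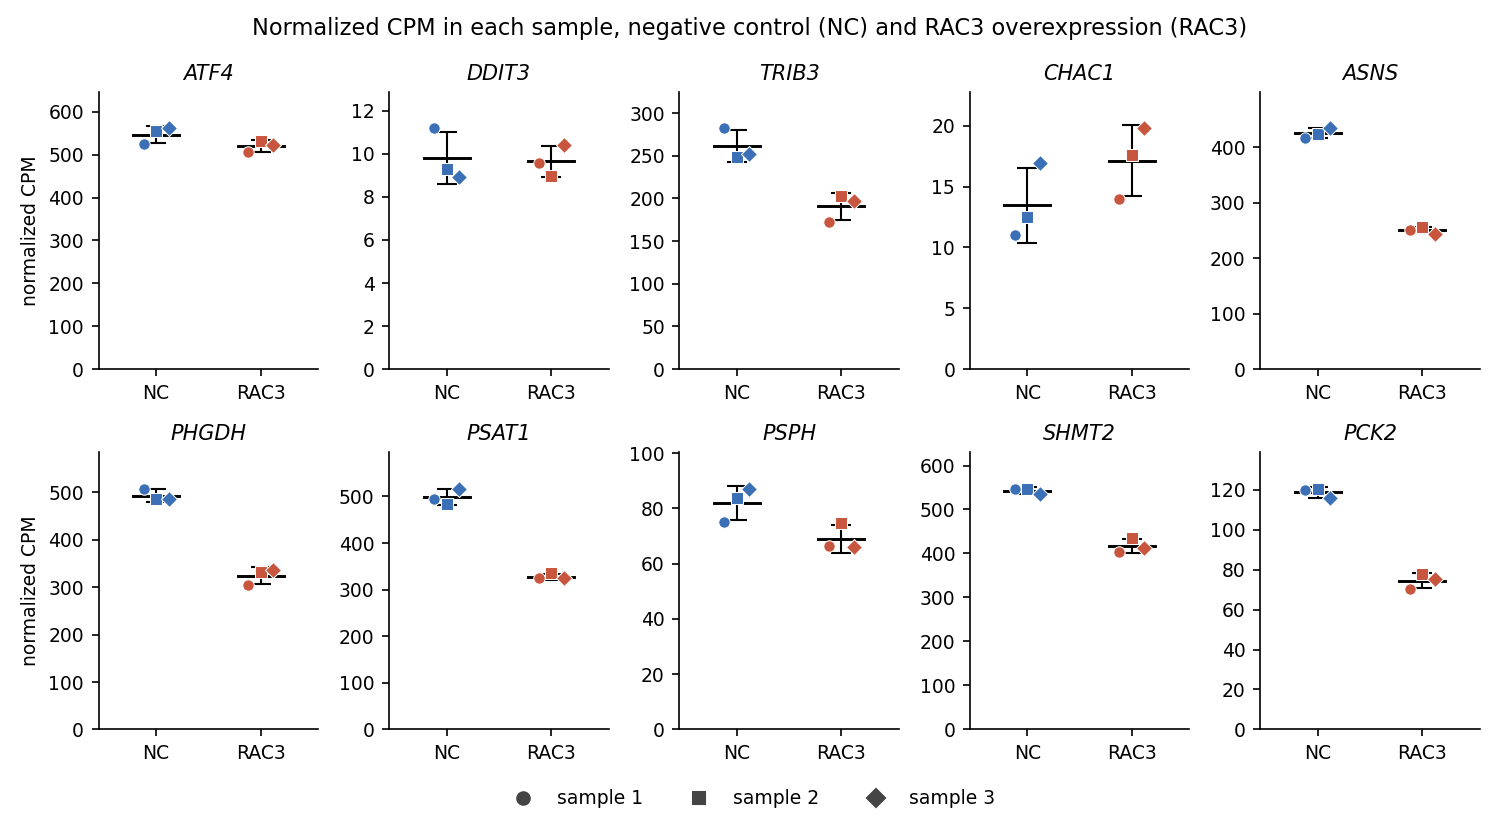
Normalized CPM (y axis, from 0, scaled for each gene) of the 10 genes in the 3 negative control (NC) and 3 RAC3 overexpression samples. Symbols are samples, horizontal lines the group means and error bars the SD. The 3 RAC3 samples of ASNS sit between 244.3 and 256.0 CPM, below the lowest negative control at 417.4 CPM, while those of ATF4, DDIT3 and CHAC1 overlap the controls.

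Among the regulators, ATF4 (ENSG00000128272, chromosome 22 from 39519695 to 39522685 in GENCODE release 29 on GRCh38) had 524.1, 555.5 and 562.1 CPM in negative controls 1, 2 and 3 and 505.3, 533.2 and 523.9 CPM in RAC3 samples 1, 2 and 3. The groups overlap, because RAC3 sample 2 lies above negative control 1. Its log2 fold change was -0.07 (SE 0.0406, 95% interval -0.15 to 0.01), and it was 0.05 when each library's trend with GC content was removed, so no direction is given for ATF4 mRNA. These values concern the mRNA, and ATF4 protein was not measured in these files.

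DDIT3 (ENSG00000175197, chromosome 12 from 57516588 to 57521737) encodes CHOP, a transcription factor induced under endoplasmic reticulum stress. It had 11.2, 9.32 and 8.92 CPM in the negative controls and 9.57, 8.99 and 10.4 CPM in the RAC3 samples. The RAC3 values lie within the range of the controls, and the log2 fold change was -0.02 (SE 0.134, 95% interval -0.28 to 0.24), with 0.08 when negative control 1 was left out and -0.10 when negative control 3 was. The value rests on 140 to 170 counts in a sample. In GENCODE release 29, 27.2% of the exon bases of DDIT3 are also exon bases of MARS1 on the opposite strand, which had 6190 to 9495 counts. How strand was used in counting is not given in the sources used here, and without it reads on these shared bases cannot be told apart.

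TRIB3 (ENSG00000101255, chromosome 20 from 362835 to 397559) encodes a pseudokinase that is induced by ATF4 and DDIT3 and restrains them in turn. It had 282.3, 248.3 and 252.1 CPM in the negative controls and 172.3, 202.4 and 197.0 CPM in the RAC3 samples. Every RAC3 sample lay below every control, with the RAC3 group spread more widely for its level than ASNS. The means were 260.9 ± 18.6 and 190.6 ± 16.1 CPM (SD, n = 3 per group) and the log2 fold change was -0.45 (SE 0.0588). It was -0.28 with the GC trend removed, the setting that moved it most.

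CHAC1 (ENSG00000128965, chromosome 15 from 40952962 to 40956519) encodes an enzyme that breaks down glutathione and is a sensitive ATF4 target. It was the only one of the 10 genes with a positive log2 fold change, and had 11.0, 12.5 and 16.9 CPM in the negative controls and 14.0, 17.6 and 19.8 CPM in the RAC3 samples. The highest control stood 1.53 times above the lowest, and it lay above RAC3 sample 1. The log2 fold change was 0.33 (SE 0.144). Without negative control 3 it was 0.53 and without RAC3 sample 1 it was 0.46, and in both cases CHAC1 was called higher, as it also was in 4 of the other alternatives. Without negative control 1 it was 0.20 and without RAC3 sample 3 it was 0.22, and in neither case was it called. It rests on 154 to 303 counts in a sample.

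ASNS (ENSG00000070669, chromosome 7 from 97852118 to 97872542), asparagine synthetase, was the gene with the largest difference of the 10. Negative controls 1, 2 and 3 had 417.4, 423.9 and 434.6 CPM, and RAC3 samples 1, 2 and 3 had 251.4, 256.0 and 244.3 CPM. Within each group the highest sample was at most 1.05 times the lowest, and the groups were 0.71 apart on the log2 scale at their nearest samples. The means were 425.3 ± 8.65 and 250.6 ± 5.85 CPM (SD, n = 3 per group), which gave a log2 fold change of -0.76 (SE 0.0406). Among the 12941 genes tested, 250 (1.93%) had a log2 fold change at or below this one. Over 17 alternatives it lay between -0.79 and -0.70. In GENCODE release 29, 44.6% of the exon bases of ASNS are shared with AC079781.5, an annotated gene on the same strand that is not among the genes with deposited counts.

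The serine synthesis enzymes act in the order PHGDH, PSAT1, PSPH. PHGDH (ENSG00000092621, chromosome 1 from 119648411 to 119744226), the phosphoglycerate dehydrogenase that commits carbon to serine, had 508.4, 486.5 and 485.7 CPM in the negative controls and 304.8, 331.9 and 337.1 CPM in the RAC3 samples. The groups were well apart, and RAC3 sample 1 was the lowest. The log2 fold change was -0.60 (SE 0.0441). A fold of 1.5 corresponds to 0.585 on this scale, and without RAC3 sample 1 the value was -0.56, which no longer reached it. Nor did the values of -0.55 with scaling by library size alone or with the GC trend removed and -0.54 in FPKM.

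PSAT1 (ENSG00000135069, chromosome 9 from 78297143 to 78330093), the aminotransferase of the next step, had 495.0, 484.1 and 517.1 CPM in the negative controls and 324.1, 335.0 and 324.1 CPM in the RAC3 samples. Here too every RAC3 sample lay below every control, by 0.53 on the log2 scale at the nearest samples, the same gap as for PHGDH. The means were 498.7 ± 16.8 and 327.7 ± 6.3 CPM (SD, n = 3 per group), which gave a log2 fold change of -0.61 (SE 0.0406). It was -0.58 without negative control 3, -0.55 when scaled by library size alone, -0.56 with the trend with gene length removed and -0.54 in FPKM, all under the 1.5-fold line in size, and -0.71 with the GC trend removed.

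PSPH (ENSG00000146733, chromosome 7 from 56011051 to 56051604), the phosphatase of the last step, differed least of the 3 enzymes. It had 75.0, 83.6 and 87.2 CPM in the negative controls and 66.3, 74.8 and 66.0 CPM in the RAC3 samples. The groups only just failed to overlap, with negative control 1 at 75.0 and RAC3 sample 2 at 74.8 CPM, and in the authors' FPKM values (fragments scaled for transcript length and library size) they did overlap, with 63.9 in RAC3 sample 2 against 57.6 in negative control 1. The log2 fold change was -0.25 (SE 0.0664). PSPH was no longer called when RAC3 sample 3 was left out, at -0.22.

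In the mitochondrion, SHMT2 (ENSG00000182199, chromosome 12 from 57229327 to 57234935) splits serine into glycine and a folate-bound carbon unit. It had 547.0, 547.7 and 534.3 CPM in the negative controls and 403.0, 434.3 and 413.2 CPM in the RAC3 samples. The groups were apart by 0.30 on the log2 scale, and the log2 fold change was -0.38 (SE 0.0402), or -0.26 with the GC trend removed.

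PCK2 (ENSG00000100889, chromosome 14 from 24094053 to 24110598), the mitochondrial phosphoenolpyruvate carboxykinase, can supply the precursors of serine from the citric acid cycle. It had 119.7, 120.6 and 115.6 CPM in the negative controls and 70.5, 77.9 and 75.2 CPM in the RAC3 samples. After ASNS it had the largest difference of the 10, with no overlap and a log2 fold change of -0.67 (SE 0.0544). It was -0.49 with the GC trend removed, below the 1.5-fold line in size.

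**Figure D2:**
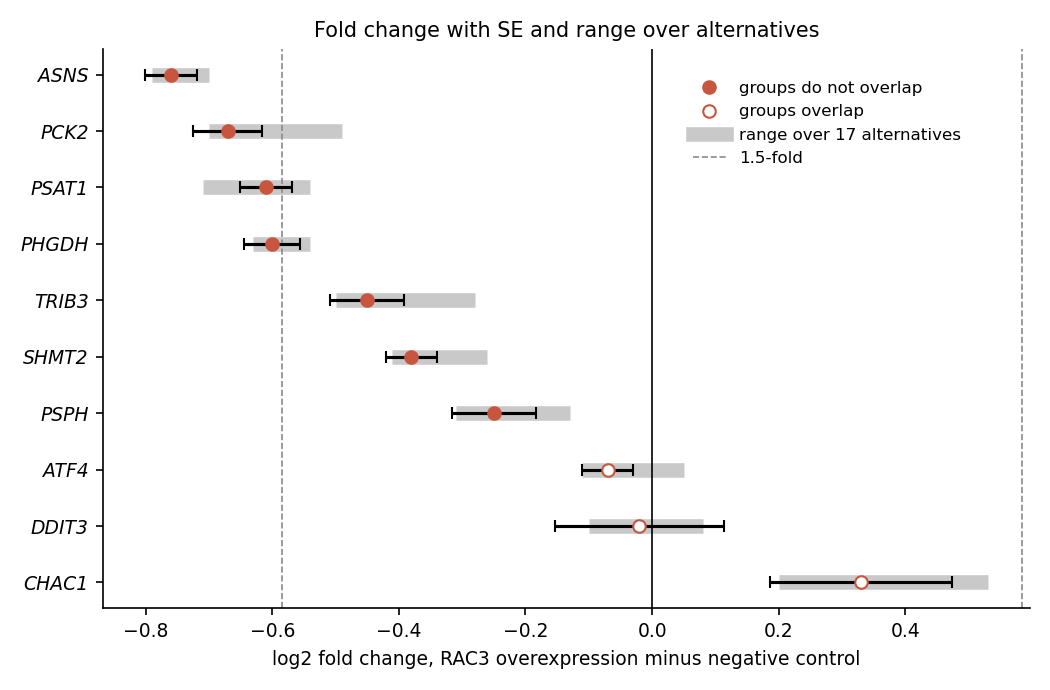
Log2 fold change (x axis, RAC3 overexpression minus negative control) of the 10 genes, ordered by size. Points are the values with their SE, filled where the groups do not overlap, grey bars the range over 17 alternatives and dashed lines a fold of 1.5. ASNS lies at -0.76 with a range of -0.79 to -0.70, and the ranges of ATF4 and DDIT3 cross 0.

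Within the RAC3 group, sample 1 was the lowest of the 3 samples for 7 of the 10 genes and sample 2 the highest for 7. In the negative controls no sample was the lowest for more than 4. The same counts were not made over all genes, so a pattern of whole libraries cannot be told apart from one of these genes. Across all 17 alternatives, the 7 genes lower with RAC3 kept a negative value.

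The levels were also ordered per length, on the FPKM scale. In the negative controls ATF4 was the most abundant of the 10, with a mean of 377.6 FPKM, followed by SHMT2 (286.1), PHGDH (260.7), PSAT1 (234.6), ASNS (228.8), TRIB3 (110.0), PSPH (62.2), PCK2 (54.9), DDIT3 (10.6) and CHAC1 (9.18). The neighbours whose samples overlapped were PSAT1 with ASNS and DDIT3 with CHAC1. With RAC3 overexpression the order of the first 8 genes was the same, PSAT1 (161.3) and ASNS (141.0) no longer overlapped, and CHAC1 (11.7) and DDIT3 (10.8) stood in the opposite order with overlapping samples. ATF4 remained at 374.3 FPKM. The level of ASNS relative to that of ATF4 was 0.631, 0.591 and 0.598 in negative controls 1, 2 and 3, and 0.401, 0.368 and 0.362 in RAC3 samples 1, 2 and 3, as a ratio of FPKM values. For PHGDH this ratio was 0.742, 0.671 and 0.662 against 0.461, 0.480 and 0.493, and for PSAT1 it was 0.644, 0.595 and 0.626 against 0.441, 0.432 and 0.421. These ratios did not overlap between the groups, nor did those of PCK2, SHMT2 and TRIB3. Those of DDIT3, 0.0336, 0.0263 and 0.0248 against 0.0293, 0.0262 and 0.0312, did overlap. So did those of PSPH, 0.161, 0.167 and 0.166 against 0.149, 0.167 and 0.139, and those of CHAC1. Because ATF4 itself differed little, at 377.6 and 374.3 FPKM, these ratios largely restate the differences on which the genes were chosen. The same ratios were not counted over all genes, and nothing is read from them.

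**Figure D3:**
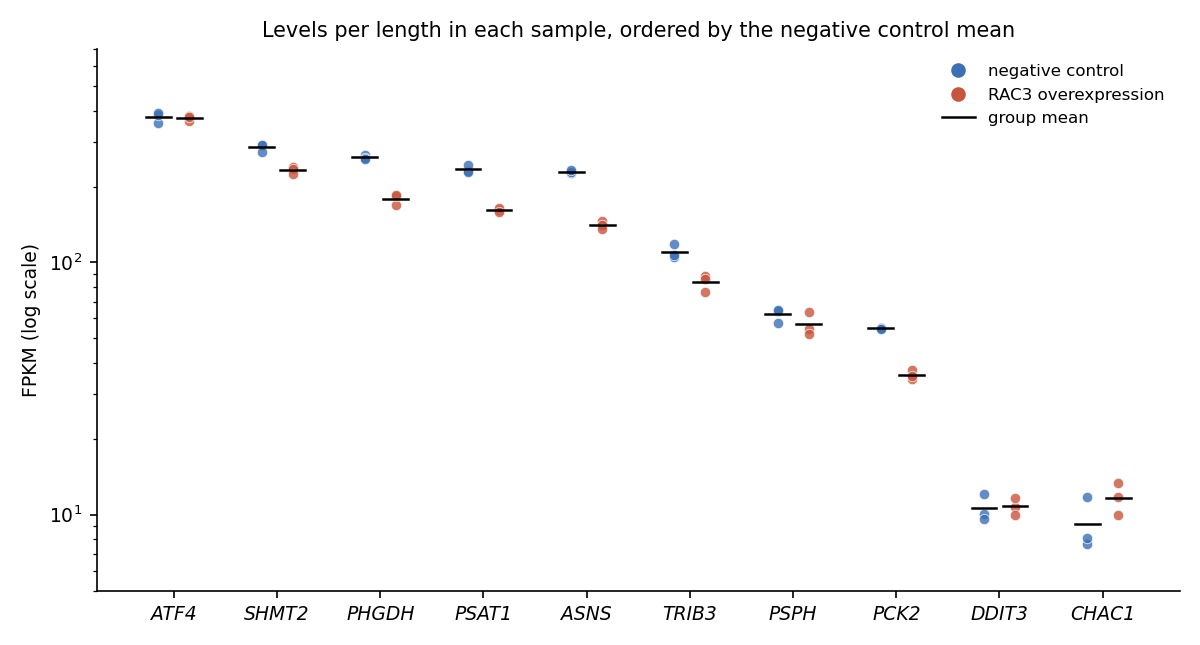
FPKM (y axis, log scale) of the 10 genes in each sample, ordered by the negative control mean. Points are samples and lines group means. ATF4 lies highest in both groups (377.6 and 374.3 FPKM on average), and ASNS moves from 228.8 to 141.0 FPKM.

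Related genes were examined in 7 lists that leave out the 10 genes, with calls at an adjusted p below 0.05 over all 12941 genes in the same edgeR test, against the same 15.3% lower and 13.3% higher of all genes tested. The lists were written from general knowledge, but with earlier results of these data known, so their counts are a description. Of 23 tested other ATF4 target genes, 7 fell, 2 rose and 14 were not called, with a median log2 fold change of -0.13. EIF4EBP1, an inhibitor of cap-dependent translation, fell (log2 fold change -0.50, SE 0.0518), as did INHBE, a liver-secreted activin subunit (-0.52, SE 0.0637), and STC2, a secreted glycoprotein (-0.63, SE 0.0826), with adjusted p-values of 1.2e-06, 8e-06 and 1.7e-05. With the GC trend removed, EIF4EBP1 was at -0.28 and still called. DDIT4, an inhibitor of mTORC1 that is also induced by hypoxia, fell most (-1.45, SE 0.238, adjusted p = 0.00016). Its negative controls were spread, at 112.5, 63.2 and 37.0 CPM, against 23.1 to 27.2 CPM with RAC3, and the log2 fold change was -0.96 without negative control 1. ATF3, a stress-induced transcription factor, rose (0.40, SE 0.0813, adjusted p = 0.001), from 29.3 ± 3.19 to 38.7 ± 1.92 CPM (SD, n = 3 per group). GADD45A, a growth arrest gene, also rose (0.28, SE 0.074, adjusted p = 0.0084), but was not called without negative control 2, at 0.22.

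Amino acid transporters regulated by ATF4 had 7 of 10 genes lower, none higher and a median log2 fold change of -0.16. SLC6A9, a glycine transporter, fell by 0.59 (SE 0.0735), SLC43A1 by 0.40 (SE 0.0466), SLC7A5, the large neutral amino acid exchanger, by 0.32 (SE 0.0427), and SLC1A5, which carries glutamine, by 0.30 on the log2 scale (SE 0.0449), with adjusted p-values from 5.2e-06 to 7.3e-05 in the edgeR test. With the GC trend removed, SLC43A1, SLC7A5 and SLC1A5 were at -0.26, -0.15 and -0.12 and still called. SLC7A11, the cystine transporter and a known ATF4 target, was not called (0.08, SE 0.0882, adjusted p = 0.56 in the edgeR test).

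Of the 20 cytosolic aminoacyl-tRNA synthetases, which charge tRNAs with amino acids, 10 fell, 1 rose and 9 were not called, with a median of -0.12. SARS1, the enzyme for serine, fell by 0.46 (SE 0.0577), AARS1, for alanine, by 0.38 (SE 0.0403), YARS1, for tyrosine, by 0.33 (SE 0.0441), and MARS1, for methionine, by 0.32 on the log2 scale (SE 0.0415), with adjusted p-values from 1.4e-06 to 2e-05 in the edgeR test. RARS1, for arginine, rose (0.24, SE 0.0507, adjusted p = 0.0018), and was at 0.12 and still called with the GC trend removed.

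Among 18 other amino acid synthesis genes, 8 fell, 1 rose and 9 were not called, with a median of -0.14. PC, pyruvate carboxylase, fell by 0.54 (SE 0.0533), ASS1, argininosuccinate synthetase of the urea cycle, by 0.49 (SE 0.0499), GPT2, a mitochondrial alanine aminotransferase, by 0.46 (SE 0.0562), and BCAT1, a branched-chain aminotransferase, by 0.27 on the log2 scale (SE 0.0444), with adjusted p-values from 6.1e-07 to 0.00018 in the edgeR test. BCAT1 was at -0.43 with the GC trend removed and still called.

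Of the 33 tested genes of the folate and glycine pathway, which takes up serine, 6 fell, 1 rose and 26 were not called, with a median of -0.05, and 18.2% lower compares with 15.3% of all genes. CBS, which condenses serine with homocysteine, fell (-0.57, SE 0.0522, adjusted p = 2.9e-07), as did MTHFD1L, a mitochondrial formyltetrahydrofolate synthetase (-0.42, SE 0.0666, adjusted p = 0.00011), and AHCY, which forms homocysteine (-0.31, SE 0.0487, adjusted p = 9.1e-05), which was at -0.20 and still called with the GC trend removed. FPGS, which retains folates in cells, fell (-0.29, SE 0.07, adjusted p = 0.0042), and DLD, a subunit of the glycine cleavage system, rose (0.24, SE 0.0599, adjusted p = 0.005), but neither was called with the GC trend removed (-0.09 and 0.10).

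**Figure D4:**
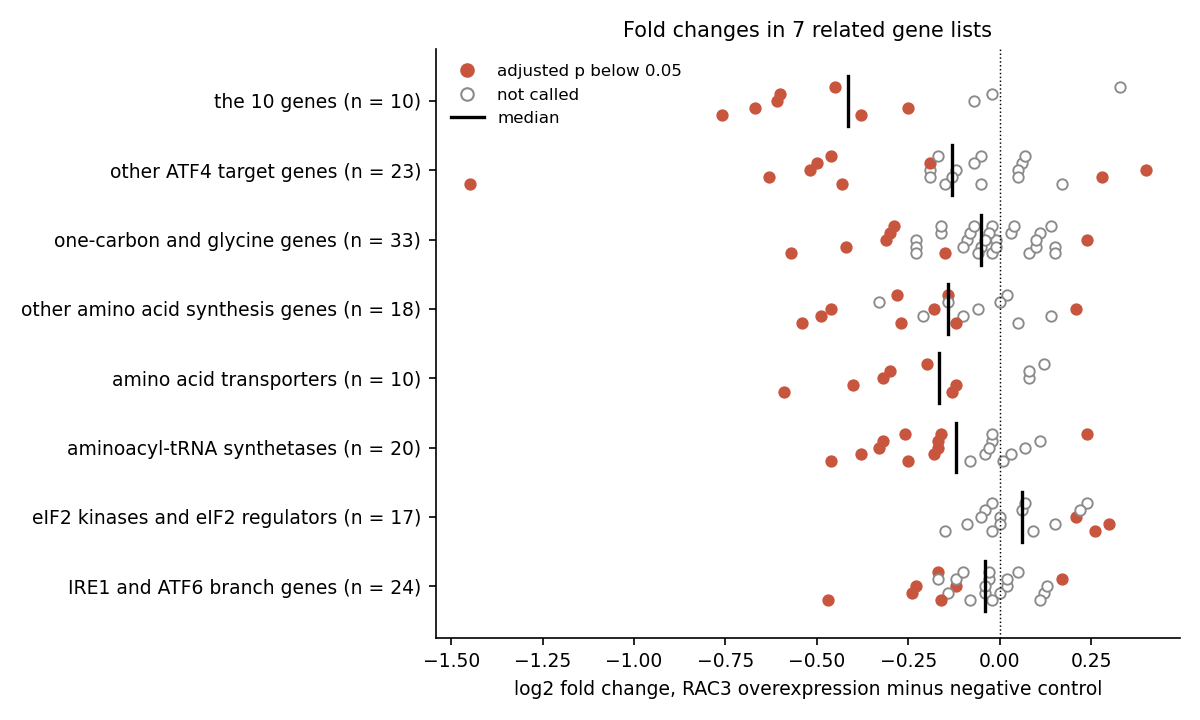
Log2 fold change (x axis, RAC3 overexpression minus negative control) of the tested genes in the 10 genes and in 7 related lists (rows, with the number tested). Filled points have an adjusted p below 0.05 in edgeR's test and black lines are medians, which lie between -0.42 for the 10 genes and 0.06 for the eIF2 kinases and regulators. For the 10 genes, which were chosen on this comparison, the filling is a description.

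Upstream of ATF4, the 17 eIF2 kinases and eIF2 regulators had 0 genes lower and 3 higher, with a median of 0.06. Of the 4 kinases, EIF2AK1, the heme-regulated one, and EIF2AK2, activated by double-stranded RNA, had log2 fold changes of 0.00 (SE 0.0415) and 0.00 (SE 0.0744), and EIF2AK3, the PERK kinase of the endoplasmic reticulum, 0.06 (SE 0.0571), none of them called. EIF2AK4, the GCN2 kinase that senses uncharged tRNA, was called higher (0.21, SE 0.0718, adjusted p = 0.038), but in 8 of 16 alternatives it was not, among them DESeq2 (0.21) and the fits without negative control 1, 2 or 3 or without RAC3 sample 1 or 3 (0.16 to 0.22). PPP1R15B, a phosphatase subunit that reverses eIF2 phosphorylation, rose (0.30, SE 0.0537, adjusted p = 0.00041), as did EIF2S1, the eIF2 subunit that is phosphorylated (0.26, SE 0.0586, adjusted p = 0.0023), which was not called with the GC trend removed (0.12).

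In the other branches of the unfolded protein response, IRE1 and ATF6, 6 of 24 genes fell and 1 rose, with a median of -0.04. DNAJB9, a chaperone of the endoplasmic reticulum, fell (-0.47, SE 0.0557, adjusted p = 5.2e-06), HSPA5, its main chaperone BiP, fell (-0.17, SE 0.039, adjusted p = 0.0037), with -0.11 when scaled by library size alone, and ATF6B fell (-0.24, SE 0.0569, adjusted p = 0.0037), a call lost with the GC trend removed (-0.11). WFS1 (-0.23, SE 0.0637, adjusted p = 0.012) lost its call without RAC3 sample 1 (-0.16) or 3 (-0.22) or with the GC trend removed (-0.07). DNAJB11 (0.17, SE 0.0563, adjusted p = 0.026) lost its call without negative control 1 or 3 or RAC3 sample 1 or 2 (0.13 to 0.17) and with the GC trend removed (0.02).

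Paralogs of the 10 genes were looked at because reads can be shared between similar sequences. SHMT1, the cytosolic counterpart of SHMT2, had 96.2 ± 4.3 and 95.7 ± 7.46 CPM (SD, n = 3 per group) and a log2 fold change of -0.01 (SE 0.0606, adjusted p = 0.94 in the edgeR test). CHAC2 was at 0.32 (SE 0.159, adjusted p = 0.15), close to CHAC1 in value and not called. TRIB1 rose (0.26, SE 0.0804, adjusted p = 0.02), which was lost without negative control 2 or 3 or RAC3 sample 3 (0.19 to 0.23), and ASNSD1, a gene with an asparagine synthetase domain, rose (0.26, SE 0.072, adjusted p = 0.011), which was lost without RAC3 sample 1 (0.18) or with the GC trend removed (0.12). PCK1, the cytosolic counterpart of PCK2 and a gluconeogenic enzyme of liver, was listed with 0 counts in every negative control and with 3, 3 and 1 in the RAC3 samples, and TRIB2 had 1 count in each group, too few to test.

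The genes with the profile most like each leading gene over the 6 samples were found among 11129 others by the root mean square difference of log2 CPM centred on the negative control mean, which is a description. For ASNS they were ZNF524 (0.0475), KCNJ5 (0.0548) and LHPP (0.057), of which ZNF524 and KCNJ5 have low levels, with means of 6.95 and 4.63 CPM in the negative controls. For PSAT1 they included F2 (0.03), which encodes prothrombin, and ADAMTS19 (0.0416). For PHGDH they were FASN (0.0165), the fatty acid synthase, PCBP4 (0.0311) and HOOK2 (0.0355). Within the 10 genes, the one nearest to ASNS was PCK2 (0.0848), and PHGDH and PSAT1 were 0.0571 apart.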

How the data were processed

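Poly(A) RNA of 3 negative control and 3 RAC3 overexpression samples of Huh-7 cells was sequenced on a NovaSeq instrument. The authors deposited raw counts per gene and FPKM values per sample. The submitters' processing notes list Bowtie2 2.2.8, HISAT2, StringTie 1.3.1 and DESeq2 without their roles, and the counter, genome build, annotation and use of strand are not given in the sources used here. The deposited FPKM values were used only for levels per length. The group means of the table were not used.

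The quasi-likelihood test came from edgeR 4.0.16 under R 4.3.3. Low genes were removed by filterByExpr, which left 12941 of 20332, libraries were scaled by TMM, and groups were compared by the two-sided F test with Benjamini-Hochberg adjustment and no covariate (biological coefficient of variation 0.0533). Of the 20332, 617 have no symbol and 3760 no count. No pair of samples had equal counts in more than 1.33% of the tested genes. The steps were tested on simulated data. The 10 genes and the lists, written from general knowledge, were chosen with earlier results of these data known. In each list, named genes were those called with a mean of at least 10 counts, at most 4 per direction by smallest p, together with the paralogs, the 4 eIF2 kinases and, for ASNS, PSAT1 and PHGDH, the 3 nearest profiles among genes with a mean of at least 50 counts. SLC7A11, ALB, PTPRC and the genes overlapping ASNS and DDIT3 were named after their values were seen. A few genes that this rule selects are not reported here. Positions, GC content and overlaps are from GENCODE release 29. Alternatives were other scalings (DESeq2's size factors, upper quartile, library size), DESeq2 1.42.0, limma-voom 3.58.1, 2 other filters, a term for the replicate number, each sample left out, GC or length trends removed (lowess, span 0.3), and log2(FPKM + 1).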

Additional observations from a re-analysis of the deposited data

How the results depend on the processing

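Of 170 values of the 10 genes under alternatives, 151 moved by less than the replicate SD, 19 by more, and none of the 7 genes lower with RAC3 changed direction. The number of called genes among other ATF4 targets was 14 (9 lower, 5 higher) with the GC trend removed, against 9. In that setting the median log2 fold change of these targets was -0.03, against -0.13. Among amino acid transporters regulated by ATF4, 5 genes were then lower and 0 higher, against 7 and 0, with a median of -0.11 against -0.16. Among IRE1 and ATF6 branch genes the number called was 4 to 7 with each sample left out (4 without RAC3 sample 1 and 4 without RAC3 sample 3), against 7. The cause was not tested. With library sizes left without TMM, the median log2 fold change of all genes was 0.06, with 1381 genes lower and 2613 higher, against 1974 and 1717, while 7 of the 10 genes were lower and CHAC1 was called higher. Deviations of same-numbered samples from their group means had correlations of -0.0873, -0.0455 and -0.0207 over 11221 genes. These values cannot show whether the samples were prepared in pairs. With the replicate block, 1777 genes were lower and 1484 higher, and of the 10 genes 7 were lower and 1 higher. Of 45 named genes in the lists, markers and paralogs included, 30 were called in all 16 fits and none changed sign. CHAC1 and DDIT3 have the fewest counts of the 10 genes. On the log2 scale the SD of CHAC1 was 0.316 in the negative controls and 0.253 in the RAC3 samples. For DDIT3 it was 0.178 and 0.108. The part of depth in this spread was not tested.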

Other observations

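The CCAAT box, searched in the same way before all genes, stood before 21 of the 23 IRE1 and ATF6 branch genes with a promoter (91.3%) and before 41.8% of all tested genes with a promoter. It stood before 7 of 16 aminoacyl-tRNA synthetases and 4 of 9 amino acid transporters. TGATGNAA stood before 3 of these 16 synthetases, AARS1, GARS1 and IARS1, and before SLC1A5 of the 9 transporters. It also stood before 3 of 18 other ATF4 target genes, ATF3, CEBPG and JDP2, of which ATF3 was called higher and the other two were not called. In the remaining lists it stood before GOT1 and BCAT1 of 12 other amino acid synthesis genes, MTHFD1L of 26 folate and glycine genes, PPP1R15B of 15 eIF2 kinases and regulators and HERPUD1 of the 23 IRE1 and ATF6 branch genes. These shares were looked at after the calls were known and are given as counts.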
